A study of Homo sapiens with 6 samples.

Results

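The genes of glucose uptake, glycolysis and pyruvate use were followed in maps of where the transcription factor Myc sat on DNA. The group held 39 named genes, chosen for their place in the pathway, out of 19785 protein-coding genes. The maps came from MDA-MB-231, a triple-negative breast cancer cell line, grown in DMEM with 10% serum. The parental line was compared with a derived line, called TKO, that had lost TXNIP (thioredoxin interacting protein) through CRISPR/Cas9 editing. According to the study's methods the knockout cells were grown out from single cells, so TKO stands for cells of clonal origin and clone and genotype cannot be told apart. Myc-bound DNA was pulled down with an anti-Myc antibody (D3N8F) and sequenced in 2 libraries from parental cells and 2 from TKO cells, and an input library without pull-down was made from each line. What was repeated between the 2 libraries of a line is stated only as a biological replicate, and the spreads given here cover these libraries alone.

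The deposited measurement was a list of peaks for each Myc library, a peak being a stretch of genome where reads piled up above background. The parental lists held 3720 and 5719 peaks and the TKO lists 27213 and 25887. Estimated depth ran the other way, at about 26400000 and 22200000 reads in the parental libraries against 19900000 and 13000000 in TKO. No peak lay within 5 kb of a start site of TXNIP itself in any of the 4 lists, and the peak lists carry no check of the knockout.

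Glycolysis splits glucose into pyruvate in the cytosol. Transporters bring glucose in, hexokinases trap it as a phosphate, and phosphofructokinase commits it to breakdown. Pyruvate is then either reduced to lactate by lactate dehydrogenase or carried into mitochondria and oxidised by the pyruvate dehydrogenase complex, which dedicated kinases switch off. Myc binds DNA with its partner Max at E-boxes, of which CACGTG is the strongest form, and several glycolytic genes are textbook Myc targets. TXNIP is a glucose-responsive protein known for restraining glucose uptake.

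A Myc peak lay at the promoters of 31 of the 39 genes in each TKO library but of only 9 and 11 in the parental libraries. A gene was counted as bound when the summit, the highest point of a peak, fell within 1 kb of an annotated start site of that gene. The parental shares were 23.1% (95% exact Clopper-Pearson interval 11.1 to 39.3) and 28.2% (15.0 to 44.9), and the TKO share was 79.5% (63.5 to 90.7) in each library. These intervals cover counting error only. In counts the parental mean was 10.0 ± 1.41 (SD, n = 2) and the TKO mean 31.0 ± 0.0 (SD, n = 2), and the groups did not overlap. Over all protein-coding genes the same rule called 12.2% and 12.9% in the parental lists and 49.1% and 49.7% in the TKO lists, so the step between the lines was shared by the genome at large. When every list was shortened to its 3720 peaks of highest fold enrichment, the 39 genes counted 9 and 10 in parental and 14 and 13 in TKO, against 12.2% and 9.01% of all genes in parental and 13.9% and 14.3% in TKO. The difference between the lines thus shrank from 21.0 to 4.0 genes once the lists were equally long.

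**Figure D1:**
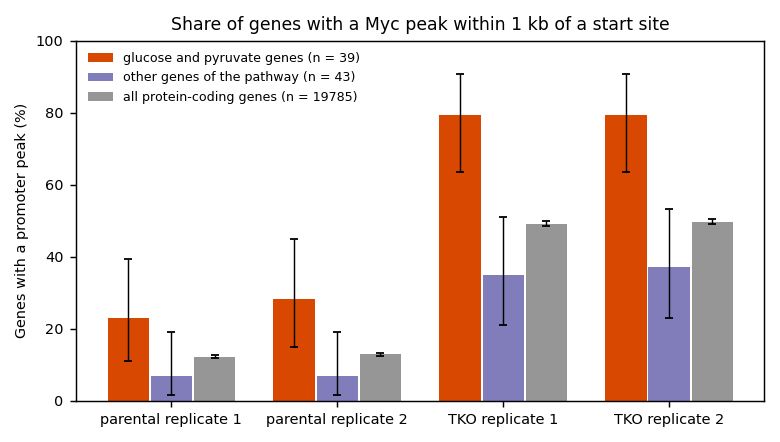
Share of genes (%, y axis) with a Myc promoter peak in each library (x axis) for the 39 glucose and pyruvate genes, 43 other genes of the pathway and all 19785 protein-coding genes. Bars are the share and lines its 95% Clopper-Pearson interval. The 39 genes stood at 23.1% and 28.2% in parental and 79.5% in each TKO library.

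By pattern, 9 of the 39 genes were bound in all 4 libraries (9.32% of all genes were). These were SLC2A4, ALDOA, GAPDH, ENO1, LDHA, LDHB, PFKFB3, DLAT and G6PC3. SLC2A1 and PKM had a promoter peak in both TKO libraries and in parental replicate 2 only, a pattern held by 6.16% of all genes. Another 19 of the 39 showed a promoter peak in each TKO list but in no parental list, a pattern that 29.8% of all genes had. TIGAR and PGAM1 were bound in a single TKO library, as were 8.2% of all genes. The remaining 7, which were SLC2A3, SLC16A1, ALDOC, TPI1, ENO2, PFKFB1 and PDK3, had no promoter peak in any library, against 46.3% of all genes, and 5 of them had no peak even within 5 kb, against 40.5%.

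A list of 43 further genes of the same pathway, mostly isoforms of liver, muscle, testis or gut and genes of glucose production, gave a lower share. Of these, 3 and 3 were bound in parental (6.98% each, exact interval 1.46 to 19.1). In TKO 15 and 16 were bound (34.9%, 21.0 to 50.9, and 37.2%, 23.0 to 53.3). These shares were below that of all genes in each library, but every interval included the share of all genes. Bound in all 4 libraries were PGM2, a phosphoglucomutase, and PC, pyruvate carboxylase, the latter at percentiles by fold enrichment of only 7.31 and 0.778 in the parental lists.

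The sequence at or near the summit of TKO replicate 1 is shown for 7 of the 9 genes bound in all 4 libraries. It is also shown for HK2, PDK1, PGK1 and PFKP, the 4 genes bound only in TKO that ranked highest there. Together they contrast summits with and without an E-box close by in that library. All are read 5′ to 3′ along the gene from GRCh37, the hg19 build of the files, and capitals mark CACGTG. The longer windows reach 50 bases to each side of the summit, and windows of 30 bases are used where the longer one would touch an untranslated region, centred on the E-box nearest the summit or, failing that, on the summit. The forward-strand windows are chr17:42148038-42148067 for G6PC3, chr11:18415872-18415972 for LDHA, chr10:6244775-6244804 for PFKFB3, chr16:30076728-30076828 for ALDOA, chr11:111895934-111896034 for DLAT, chr2:75062078-75062178 for HK2, chr2:173421333-173421362 for PDK1, chrX:77359739-77359768 for PGK1 and chr10:3110733-3110762 for PFKP. The reverse-strand windows are chr12:21810332-21810361 for LDHB and chr1:8938164-8938264 for ENO1.
G6PC3: tgcaacagtggcCACGTGgggccctgagga
LDHA: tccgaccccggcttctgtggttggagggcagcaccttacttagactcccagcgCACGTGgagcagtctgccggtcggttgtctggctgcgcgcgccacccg
LDHB: cgggagtcgggaCACGTGcccgagtagctg
PFKFB3: caccctcctcccCACGTGgaagggggctgg
ENO1: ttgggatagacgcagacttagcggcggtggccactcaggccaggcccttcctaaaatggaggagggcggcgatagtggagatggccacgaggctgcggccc
ALDOA: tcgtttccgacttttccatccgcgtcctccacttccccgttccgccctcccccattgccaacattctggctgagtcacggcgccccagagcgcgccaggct
DLAT: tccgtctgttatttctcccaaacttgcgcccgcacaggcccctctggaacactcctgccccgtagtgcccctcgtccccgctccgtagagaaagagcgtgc
HK2: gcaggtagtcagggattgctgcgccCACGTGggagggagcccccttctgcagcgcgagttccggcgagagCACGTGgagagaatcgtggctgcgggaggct
PDK1: cgcctcccggcgCACGTGtgcaggtgcgcg
PGK1: cgcggtgttccgcattctgcaagcctccgg
PFKP: ccgggcttccctgccctgcaatgtggaagc
Of these, 6 windows hold CACGTG (G6PC3, LDHA, LDHB, PFKFB3, HK2 and PDK1) and 5 do not. The windows of G6PC3, LDHB, PFKFB3 and PDK1 were centred on CACGTG and so hold it by construction. That of PFKFB3 leaves out its summit. A window without CACGTG can lie in a peak that holds it. In TKO replicate 1 the whole peak held 5 copies for ENO1, 1 each for ALDOA and PFKP and 0 for PGK1 and DLAT. By the annotation the summits of LDHA and DLAT lay outside their genes, those of ENO1, ALDOA, LDHB, PFKFB3, HK2 and PDK1 in introns, and those of G6PC3, PGK1 and PFKP in an untranslated region. HK2 holds 2 copies, and the longer window around the G6PC3 summit also holds 2.

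Ranks below are percentiles, meaning the share of peaks in the same list whose fold enrichment was equal or lower, where fold enrichment is the authors' ratio of reads at the summit to local background. Levels are reads covering the summit per 1000000 reads of the library (RPM), recovered from the deposited fold and p-value of each peak. They can be given only where a peak was called. The estimated length to which reads were extended was 182 and 201 bp in TKO and 140 and 151 bp in parental. Longer extension puts more reads over a summit, so TKO levels, ratios and gaps in RPM are raised relative to parental. A missing peak means that the signal did not pass the authors' threshold, and the weakest peaks called in the parental lists had 13 and 10 reads at the summit (0.492 and 0.451 RPM). The 5th percentile of called parental peaks was higher, at 19 and 17 reads (0.719 and 0.766 RPM). Calling also depends on local background, so no single level marks a missing peak. Percentiles compare peaks within a list. The lists of the 2 lines differ in length, so a percentile that differs between lines is not by itself a change in binding. Offsets are from the nearest annotated start site, negative upstream.

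**Figure D2:**
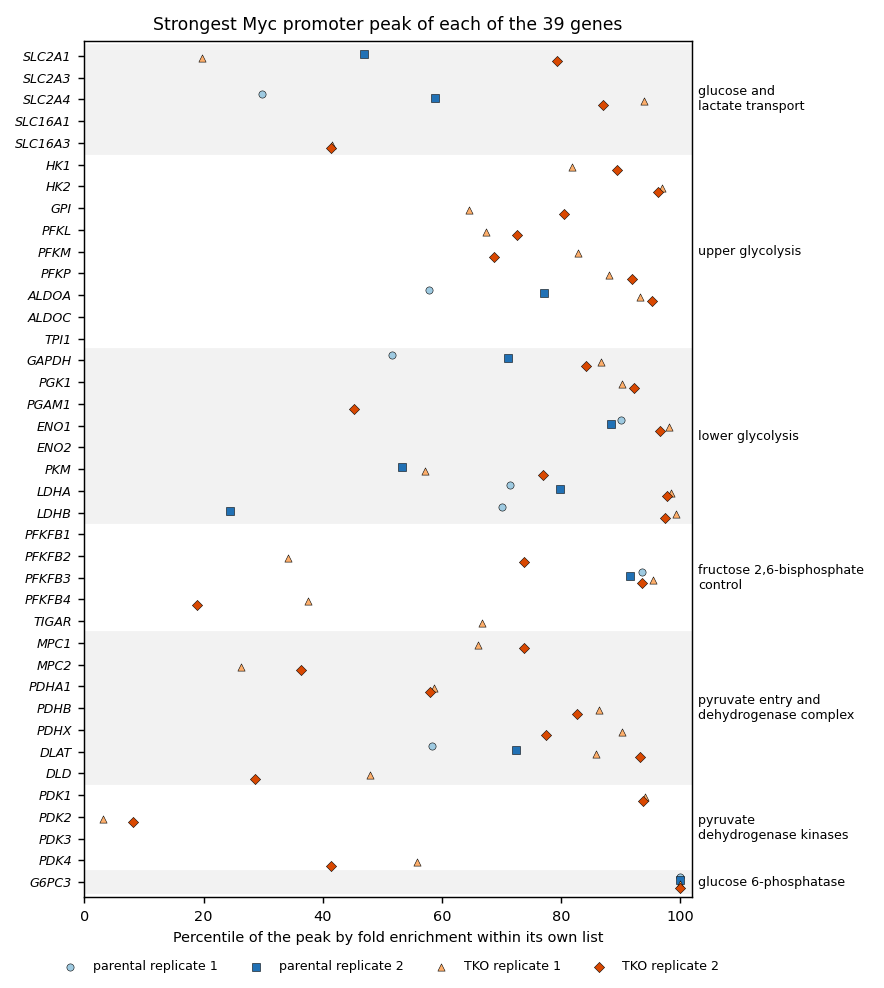
Percentile by fold enrichment (x axis) of the strongest promoter peak of each of the 39 genes (y axis, grouped by role) in each library, with no point where no promoter peak was called. G6PC3 sat at percentile 99.97 or above in all 4 lists, and the 9 genes bound in all 4 libraries lay above the 84th percentile in both TKO lists.

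Glucose and lactate transporters were split. SLC2A4, which encodes the insulin-regulated glucose transporter GLUT4, was the only 1 of 5 bound in all 4 libraries (9.32% of all genes were). Its summits lay between -282 and -170 bp. Its level was 0.908 and 1.22 RPM in parental and 2.66 and 3.22 in TKO, a ratio of 2.77. The lower TKO value was 2.18 times the higher parental value. SLC2A1, encoding the widespread transporter GLUT1, had a weaker peak over its start, with levels of 0.766 in parental replicate 2 and of 0.702 and 1.69 in the TKO libraries. The TKO values for SLC2A1 fell on either side of the parental value, with percentiles of 19.7 and 79.4 against 47.0. SLC16A3, the lactate exporter MCT4, had weak promoter peaks in both TKO libraries, the strongest at percentiles 41.6 and 41.4. No promoter peak of TKO replicate 1 overlapped a promoter peak of TKO replicate 2. The TKO replicate 1 peak at -649 bp did overlap a TKO replicate 2 peak whose summit, at -1038 bp, lay past 1 kb. The strongest SLC16A3 peak lay inside the gene at 1545 and 1529 bp from a start site, at percentiles 91.7 and 92.0. Parental replicate 1 had a peak at 1334 bp with a percentile of 59.0. The 1 kb rule therefore counted SLC16A3 as bound only in TKO although parental replicate 1 had a peak close by. SLC2A3, the neuronal-type transporter GLUT3, and SLC16A1, the lactate carrier MCT1, had no peak within 5 kb in any list. The nearest TKO peaks to SLC2A3 were 8153 and 8079 bp away, nearer to the start of FOXJ2, and those to SLC16A1 were 48602 and 75041 bp away.

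In upper glycolysis, where glucose is phosphorylated and split, 7 of 9 genes were bound in each TKO library and only ALDOA in the parental ones. Of all genes, 49.1% and 49.7% were bound in TKO and 12.2% and 12.9% in parental. ALDOA, the aldolase that cuts the phosphorylated sugar, gave 0.681 and 0.856 RPM in parental and 1.80 and 2.45 in TKO, without overlap and with a ratio of 2.77. Its peak was the weakest of the 9 shared ones by level. HK2, the inducible hexokinase of many tumours, had no parental peak but ranked at percentiles 97.0 and 96.2 in TKO, the highest mean (96.6 ± 0.512, SD, n = 2) among the 19 genes bound only there. It had 4 promoter peaks in TKO replicate 1 and 3 in TKO replicate 2. The strongest HK2 peaks overlapped, but their summits were 228 bp apart, and only that of TKO replicate 1 had an E-box within 50 bp. HK1, the constitutive hexokinase, was at percentiles 81.9 and 89.4, with summits 753 and 727 bp into the gene. For GPI, the glucose phosphate isomerase, they were 64.6 and 80.6, with summits 68 and 134 bp into the gene. All 3 genes of phosphofructokinase, the committing enzyme, were bound only in TKO, as were 29.8% of all genes. PFKP (platelet type) was at percentiles 88.2 and 92.0, PFKM (muscle type) at 82.9 and 68.7, and PFKL (liver type) at 67.5 and 72.6. Peaks inside PFKP, about 3 kb beyond an internal start site, were called in all 4 libraries, at percentiles 16.5 and 32.7 in parental and 50.8 and 51.0 in TKO. For PFKM the strongest summits of the 2 TKO libraries were 13331 bp apart at different start sites, each of which had a peak in both libraries, and the upstream summit of TKO replicate 2 was also at -9 bp from the start of SENP1. ALDOC, the brain-type aldolase, had no peak within 5 kb. TPI1, triose phosphate isomerase, had only a weak peak 4465 bp beyond its start in TKO replicate 1, at percentile 18.3, which lay nearer to the start of SPSB2.

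Lower glycolysis, from glyceraldehyde phosphate to lactate, held 4 of the 9 genes bound in all 4 libraries. These were 4 of its 8 genes, against 9.32% of all genes. LDHA, which turns pyruvate into lactate, had 1.74 and 2.12 RPM in parental and 4.56 and 6.29 in TKO, a ratio of 2.81. LDHB, the isoform that favours the reverse reaction, had 1.36 and 1.31 in parental and 4.01 and 3.53 in TKO, a ratio of 2.82. Both pairs of TKO values stood clear of the parental ones, by 2.15 times for LDHA and 2.59 times for LDHB between the nearest libraries. The rank of LDHB in its own list was at percentiles 70.1 and 24.4 in parental and 99.3 and 97.4 in TKO. The LDHA summits lay between -190 and -138 bp, whereas those of LDHB lay between 331 and 408 bp, inside an intron.

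ENO1, the main enolase, had 1.59 and 1.35 RPM in parental and 4.31 and 4.37 in TKO, a ratio of 2.95. The nearest libraries of the 2 lines were 2.71 times apart. Its summit sat inside an intron, 531 to 601 bp from the start, in all 4 libraries. GAPDH, glyceraldehyde phosphate dehydrogenase, had 1.21 and 1.13 RPM in parental and 2.61 and 2.76 in TKO, a ratio of 2.30, with the 2 lines not overlapping. PKM, pyruvate kinase, had a level of 0.766 in parental replicate 2 and of 1.40 and 1.46 in TKO, with no parental replicate 1 peak. PGK1, phosphoglycerate kinase, had no parental peak and percentiles of 90.3 and 92.4 in TKO. The stronger PGK1 peak of TKO replicate 2 was at a distant upstream start next to that of ATP7A, relative to whose start the summit was at -174 bp. TKO replicate 1 had an overlapping peak there, at percentile 87.4. At its main start PGK1 also had a peak in each TKO library, at percentiles 90.3 and 82.3. PGAM1, phosphoglycerate mutase, was bound in TKO replicate 2 only, at percentile 45.2 and with a summit that was also at -253 bp from the start of RRP12. ENO2, the neuronal enolase, had no peak within 5 kb.

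**Figure D3:**
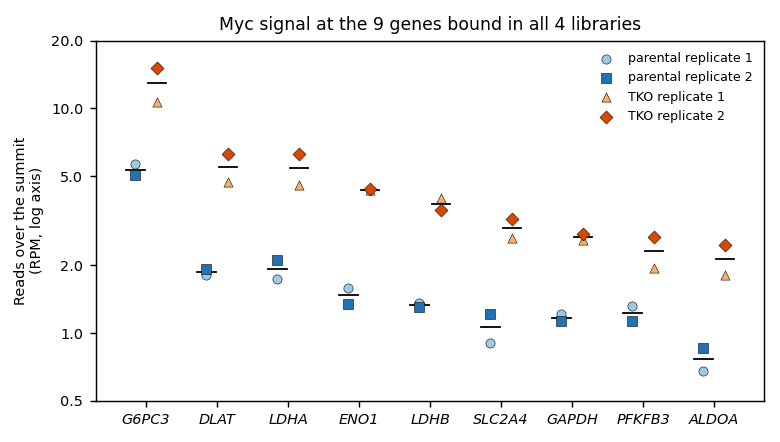
Reads over the summit in RPM (y axis, log scale) for the 9 genes bound in all 4 libraries (x axis, ordered by TKO mean). Points are libraries and lines the mean of 2 libraries. Levels are not divided by extension length, which was longer in TKO. For each gene both TKO points lie above both parental points, with ratios of the means from 1.89 for PFKFB3 to 2.95 for ENO1. How many other genes bound in all 4 libraries did the same was not counted.

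Fructose 2,6-bisphosphate is the strongest activator of phosphofructokinase, and the PFKFB enzymes make and remove it. PFKFB3, the isoform with the strongest bias to synthesis, was bound in all 4 libraries with summits between -26 and -3 bp. Its level was 1.32 and 1.13 RPM in parental and 1.96 and 2.68 in TKO. The ratio was 1.89, the lines did not overlap and the nearest libraries were 1.48 times apart. With start sites of all transcripts, which brought in another peak, the PFKFB3 ratio was 2.73, so its place as the lowest of the 9 rests on the transcript set. Its percentiles were 93.7 and 91.6 in parental and 95.4 and 93.6 in TKO. Dividing by extension length, with the main start sites, gave a PFKFB3 ratio of 1.42. The gap between its nearest libraries was not recomputed in this way. PFKFB2, the heart isoform, was bound only in TKO at percentiles 34.1 and 73.7, and its summits were within 1 kb of the YOD1 start as well, so the 2 genes cannot be told apart there. PFKFB4 was bound only in TKO by the 1 kb rule at percentiles 37.5 and 18.8, with a peak beyond that limit at -1435 bp in parental replicate 2 and at -1436 bp in TKO replicate 2. TIGAR, a phosphatase that lowers fructose 2,6-bisphosphate, was bound in TKO replicate 1 only, at percentile 66.8. PFKFB1, the liver isoform, had no promoter peak. Its TKO peaks at -1853 and -1867 bp lay 24 and 38 bp from the start of APEX2.

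The 7 genes of pyruvate entry and the pyruvate dehydrogenase complex were all bound in both TKO libraries, and DLAT alone was bound in parental. Per library, the share of all genes bound was 49.1% and 49.7% in TKO and 12.2% and 12.9% in parental. DLAT, the acetyltransferase core of the complex, had 1.82 and 1.94 RPM in parental and 4.71 and 6.29 in TKO, a ratio of 2.93. The lowest TKO value was 2.43 times the highest parental one. PDHB, the beta subunit of the decarboxylase, reached percentiles 86.3 and 82.8 in TKO, and PDHX, which anchors another subunit, reached 90.3 and 77.5. The summit of PDHX lay within 1 kb of the start of its neighbour APIP in both libraries, and these neighbours cannot be told apart there. PDHA1, the alpha subunit, had its summits at 8 and 13 bp, with percentiles of 58.7 and 58.0. DLD, the shared dehydrogenase subunit, was weaker, at percentiles 47.9 and 28.7. MPC1 and MPC2 form the carrier that takes pyruvate into mitochondria. MPC1 had 3 promoter peaks in each TKO library and percentiles of 66.0 and 73.8 for the strongest, which was a different one in each. The MPC2 peaks, at percentiles 26.2 and 36.4, were also within 1 kb of the start of DCAF6.

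Of the pyruvate dehydrogenase kinases, which switch the complex off, 3 of 4 were bound in both TKO libraries and none in parental. Only 12.2% and 12.9% of all genes were bound in parental, so with 4 genes this does not set the kinases apart. In TKO the share of all genes was 49.1% and 49.7%. PDK1 was the strongest, with percentiles of 94.1 and 93.7. It had 2 peaks in each TKO library, upstream of the start and inside the gene, and in TKO replicate 2 these were nearly equal at percentiles 93.7 and 93.6. PDK4 ranked at 55.9 and 41.4. PDK2 had the weakest peak of the 19 genes bound only in TKO, at percentiles 3.19 and 8.23. PDK3 had no peak within 5 kb.

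G6PC3, the glucose 6-phosphatase found in most tissues, had the strongest Myc peak of the 39 genes in every library. Its fold enrichment was 33.1 and 28.0 in parental and 39.8 and 47.6 in TKO. It was the peak of highest fold in the whole parental replicate 1 list and stood at percentiles 99.98, 99.97 and 99.99 in parental replicate 2, TKO replicate 1 and TKO replicate 2. Reads over the summit were 5.64 and 5.05 RPM in parental and 10.7 and 15.2 in TKO, a ratio of 2.43. The means were 5.34 ± 0.417 and 13.0 ± 3.15 (SD, n = 2 each), and the nearest libraries were 1.90 times apart. Divided by extension length the ratio was 1.82. All 4 summits fell within 22 bp of each other, between -54 and -32 bp, and each had 2 E-boxes within 50 bp. The other 2 genes of this enzyme family, G6PC1 and G6PC2, had no promoter peak in any list.

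Over the 9 genes bound in all 4 libraries the median ratio of TKO to parental level was 2.77, with a range of 1.89 to 2.95 and all 9 above 1. Over the 1843 protein-coding genes bound in all 4 libraries the median was 2.56 with quartiles of 2.25 and 2.87, and 99.9% were above 1. Among those 1843 genes the 9 ratios stood between the percentile 6.62 of PFKFB3 and the percentile 78.9 of ENO1. How many of the 1843 also had no overlap between the lines was not counted. The lack of overlap is therefore not shown to be particular to these 9. For each of the 9 genes the exact two-sided permutation test gave p = 0.333, which is the smallest value that 2 libraries against 2 allow. Divided by the length to which reads were extended, which was longer in TKO (182 and 201 bp) than in parental (140 and 151 bp), the median ratio was 2.11. The 9 ratios then ran from 1.42 for PFKFB3 to 2.24 for ENO1. The median over the 1843 genes was not recomputed in this way.

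Among the genes bound in a library, the 39 ranked somewhat higher than genes in general. The median percentile of their strongest promoter peaks was 70.1 and 72.4 in parental, against 56.8 for all bound genes in each, and 82.9 and 80.6 in TKO, against 71.0 and 70.6. The 9 genes bound in all 4 libraries had median percentiles of 70.1 and 77.2 in parental, against 63.1 and 63.6 for all such genes, and of 95.4 and 95.3 in TKO, against 95.1 and 94.7, and the 19 bound only in TKO had 66.0 and 73.7 there, against 62.6 and 63.3. More than 1 promoter peak was seen at 19 of 31 bound genes (61.3%) in TKO replicate 1 and 18 of 31 (58.1%) in TKO replicate 2, against 32.1% and 29.6% of all bound genes. The strongest of several peaks can rank higher for that alone. The ranks were not adjusted for the number of peaks or start sites, so how much of the difference this makes was not tested.

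**Figure D4:**
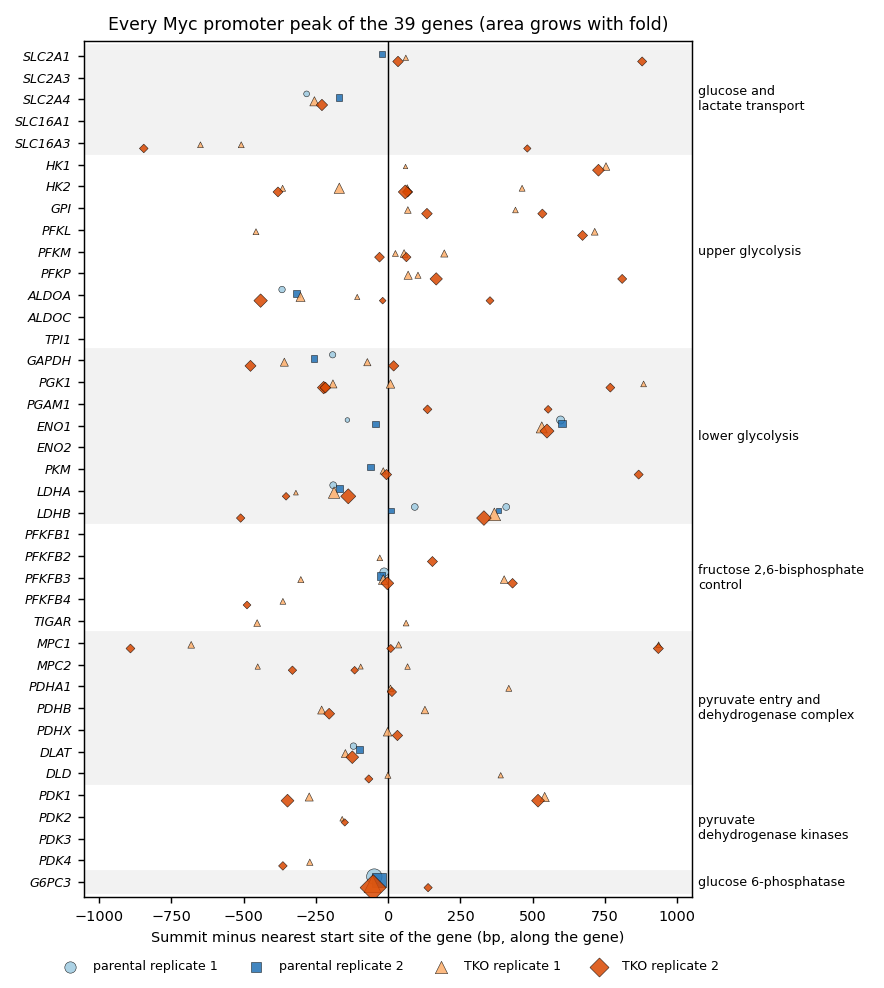
Position of every promoter peak of the 39 genes relative to the nearest start site of its gene (x axis, bp along the gene, negative upstream), by gene and role (y axis) and library, with symbol area growing with fold enrichment. The strongest G6PC3 summits stack between -54 and -32 bp, while those of ENO1 and LDHB lie between 331 and 601 bp.

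Most of the strongest peaks of these genes lay at the same position across libraries. How often this holds over all bound genes was not computed, so it is not shown to be particular to these genes. For the 11 genes bound in both lines the strongest peaks overlapped in 11 of 11 cases, with all summits of a gene within 22 to 302 bp. Between the 2 TKO libraries they overlapped for 24 of 30 genes, at a median summit distance of 39 bp. The other 6 were SLC16A3, PFKM, PGK1, MPC1, MPC2 and PDK1. When every promoter peak was considered, 29 of 30 had an overlapping promoter peak, and the exception was SLC16A3. There the overlapping peak of TKO replicate 2 had its summit at -1038 bp, just past the 1 kb limit. Beyond the promoter, at 1 to 5 kb, 12 of the 39 genes (30.8%) had a peak in each TKO library and 3 (7.69%) in each parental one, against 14.8% and 14.9% of all genes in TKO and 2.02% and 3.29% in parental.

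E-boxes were more frequent under these peaks than under promoter peaks in general. CACGTG, searched on both strands and wholly within 50 bp of the summit, was present at 5 of 9 strongest peaks (55.6%, exact interval 21.2 to 86.3) and 4 of 11 (36.4%, 10.9 to 69.2) in parental, against 22.3% and 18.8% of the strongest promoter peaks of all genes. In TKO it was present at 9 of 31 (29.0%, 14.2 to 48.0) and 8 of 31 (25.8%, 11.9 to 44.6), against 9.33% and 8.20%. The intervals are wide at these numbers of peaks, and in parental both include the share of all genes. Over the genes bound in all 4 libraries it was present at 5 and 4 of 9 in the TKO lists. For all such genes it was present at 21.9% and 21.0% of their strongest promoter peaks, each peak counted once. Over the genes bound only in TKO it was present at 4 and 4 of 19, against 6.10% and 5.04% of peaks counted likewise.

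**Figure D5:**
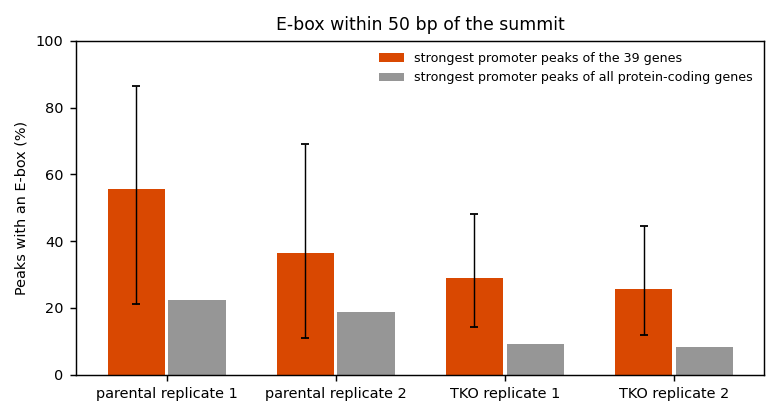
Share of strongest promoter peaks (%, y axis) with CACGTG within 50 bp of the summit in each library (x axis), for the 39 genes and for all protein-coding genes. Lines are 95% Clopper-Pearson intervals over 9, 11, 31 and 31 peaks. The share was 55.6% and 36.4% in parental and 29.0% and 25.8% in TKO.

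In single genes the E-box stood within 50 bp of the summit in all 4 libraries for LDHA, PFKFB3 and G6PC3. It stood there in 3 libraries for SLC2A4 and LDHB, where the missing library had its nearest E-box 86 bp (SLC2A4, parental replicate 2) and 48 bp (LDHB, TKO replicate 2) away, the latter reaching past the window. ENO1 had its nearest E-box 172 bp from the summit in TKO replicate 1 and 5 of them within that 1736 bp peak. For ALDOA the distance was 486 bp, for GAPDH 1025 bp and for DLAT 1541 bp in the same library, so peaks were also called in all 4 libraries with no CACGTG near the summit. Among the genes bound only in TKO, PDHB and PDK2 had an E-box in that window in both libraries. HK2 and PDK1 had it in TKO replicate 1, and PFKP and PGK1 in TKO replicate 2. This counts only the strongest peak per library, which for PDK1 and PGK1 was a different one in each. The other PDK1 peak of TKO replicate 2, at percentile 93.6, had its summit at 173421336, inside the printed PDK1 window that holds CACGTG. The PGK1 case was the peak at the start next to that of ATP7A, where TKO replicate 1 also had a peak. Variant forms of the motif were found at fewer of these peaks than CACGTG was: CACGCG was found at 1 and 3 of 31 TKO peaks (3.23% and 9.68%), against 10.0% and 9.43% of all genes' peaks, and CACGAG at 2 and 4 of 31 (6.45% and 12.9%), against 5.70% and 5.23%. The variant CATGTG was found at 1 and 0 of 31, against 4.62% and 3.71%, where the exact interval of 0 of 31 reaches up to 11.2%. The carbohydrate response element was searched only as 2 exact copies of CACGTG separated by 5 bases. This pattern was found at 0 of these peaks in any library. Over all promoter peaks it was found at only 1 or 2 in each list (0.0168% to 0.0894%). So strict a pattern is too rare for its absence from these few peaks to show anything about the element.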

How the data were processed

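Chromatin immunoprecipitation sequencing of Myc was deposited for 4 Myc libraries among 6 samples, and the 2 inputs, which have no peak list, were not analysed here. The submitters' processing notes name Novoalign 3.08.02, MACS2 2.1.1.20160309 and hg19. The authors called peaks per library, and the deposited peak score, fold enrichment and −log10 p and −log10 q values are MACS2's. Whether duplicate reads were removed is not given in the sources used here.

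Summits were assigned to 55871 start sites of protein-coding genes (GENCODE basic transcripts lifted to GRCh37), within 1 kb (promoter) or 5 kb. Reads over each summit were recovered as the whole number that gives the deposited fold and −log10 p (tolerance 0.002), which succeeded for 100% of peaks. Depth was estimated from the lowest background in a list, its shortest peak width, taken as the extension length, and an assumed genome size of 2700000000, divided by the factor by which summit reads had to be scaled to give the deposited values (0.837 in parental replicate 1, 0.997 in parental replicate 2 and 1 in TKO), so levels in RPM carry the error of these assumptions. The steps were tested on simulated data. Sequence was read with pysam 0.24.0 and intervals and permutations came from scipy 1.17.1 under Python 3.11.15, with tables in pandas 2.3.3.

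The 39 members, the 43 other genes and the tests were chosen with earlier results of these data known. Every member was accounted for. Values were given for members bound in all 4 libraries, for the 10 of highest mean TKO percentile among those bound only in TKO and for members bound in 1 TKO library, only beyond 1 kb or not at all. Values for the remaining members bound only in TKO were added beyond that rule. The alternatives tried were the q and fold thresholds, equal list lengths, window sizes, transcript sets, ranking by p, the motif window, the extension length, leaving out each library and a replicate block. Start sites of the canonical transcript only were added after seeing the data. The sequence windows of 2 members bound in all 4 libraries are not reported here.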

Additional observations from a re-analysis of the deposited data

How the results depend on the processing

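Of 98 alternative values for 8 results, 14 moved and 0 reversed. Moving meant over 1.5 times for a count or difference of counts and over 1 SD between libraries for other values with no test, so the other 84 can still differ. Lists of equal length moved the counts most. The difference in members with a promoter peak went from 21.0 to 4.0, that within 5 kb from 20.5 to 3.5, members bound only in TKO from 19 to 4, and the difference over all genes from 7297 to 688, while members bound in all 4 libraries went from 9 to 6. By construction the equal lists drop most TKO peaks. At a fold of at least 5, members bound only in TKO numbered 13. The TKO minus parental difference in median percentile spans lists of unequal length, and over all bound genes the medians also differed, at 56.8 in each parental list and 71.0 and 70.6 in TKO. For the members the difference of 10.5 became 21.4 with equal lists, 12.4 at a fold of at least 5, 16.7 with a 500 bp window, 14.8 with 3 kb and 13.4 with all transcripts. The mean TKO share of E-box peaks, 27.4%, became 51.6% with equal lists, 21.7% over every promoter peak and 24.5% with canonical start sites, an alternative chosen after seeing the data. The median ratio of 2.77 became 2.11 per extension length, and leaving out single libraries gave 2.36 (without TKO replicate 2) to 2.97 (without TKO replicate 1). Apart from the equal lists, whose cause is stated, the cause was not tested.

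The replicate block gave a median ratio of 2.78 and left the other differences at their main values. Same-numbered libraries deviated together with a correlation of only 0.0722 over 1843 genes, so the numbers were taken as names and not as pairs. Single members were most affected by equal lists (22 changed their number of bound libraries) and by a fold of at least 5 (9). At that fold SLC2A4 and LDHB were bound in 3 libraries, and PFKFB4 and PDK2 in 0. With canonical start sites PFKP was bound in 1 library.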
